A study of Drosophila melanogaster with 24 samples.

Results

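The loci described here are 87 of the 3333 gene loci that carry only a CG number as their name and reached a mean of at least 1 FPKM over 8 groups of Drosophila S2 cells. FPKM is the number of fragments scaled to transcript length and to all fragments mapped, so it can be compared between genes of different length. The loci were chosen by these FPKM values themselves: a locus was taken when its lowest value among the 4 groups labelled with Sin3A dsRNA, with 0.1 FPKM added, was at least 1.4 times its highest value among the 4 groups without it. The tables hold 14542 loci in all, of which 7145 are CG-numbered and 7748 of any name reached the mean of 1 FPKM. A CG number is the computed gene identifier of the fly genome, given to genes before they are named for a mutant or a function. In RefSeq, 27 of the 87 now carry another symbol and 60 are still known by number.

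S2 cells are a cultured line of embryonic, hemocyte-like fly cells. They received double-stranded RNA (dsRNA) against GFP as the control (GFP RNAi), Sin3A (Sin3A KD), lid (lid KD) or Sin3A and lid together (dual KD) for 4 days. Each of these was also exposed to paraquat, a compound that generates superoxide in cells, at 8.3 mM for 24 h, which makes 8 groups of 3 replicates and 24 samples. Every group, the control included, thus carried dsRNA, and all came from 1 cell line. The deposited values combine the 3 replicates of a group, so each group is 1 pool with 1 value for each locus, and no spread between replicates can be given.

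SIN3 is a scaffold that brings the histone deacetylase RPD3 to chromatin, where removal of acetyl groups from histones usually goes with lower transcription. dKDM5/LID, the product of lid, is a demethylase that removes a methyl mark of active promoters and copurifies with a SIN3 complex. SIN3 in flies is known for its links to the cell cycle, to mitochondrial activity and to intermediary metabolism. Several loci described below encode mitochondrial enzymes, transporters or assembly factors.

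The 8 pools were close in summed FPKM, which the scaling to all mapped fragments works towards. That sum lay between 749891 and 814105 and was lowest in Sin3A KD (749891) and dual KD (758637). In a pool 7537 to 7764 loci reached 1 FPKM, and the 10 highest loci held 11.7% to 15.9% of the sum. Depth and quality of the single libraries were not compared. lid stood at 35.8 to 43.0 FPKM in the 4 pools without lid dsRNA and at 14.9 to 17.0 FPKM in the 4 with it. Sin3A stood at 62.0 to 67.9 FPKM in the pools without Sin3A dsRNA and at 58.0 to 61.7 FPKM in the pools labelled with it, a fitted log2 difference of -0.12 ± 0.04 (SE) with a limma adjusted p of 0.059. The transcript of the target therefore does not check these labels, and a pool labelled with Sin3A dsRNA is meant wherever the dsRNA is named below. For the protein, the study reports an efficient reduction of SIN3 on western blots, a check it describes as routine. Protein is not part of the values used here. Of 7 hemocyte markers found, 6 had a mean of at least 1 FPKM, and Hml had a mean of 0.353 FPKM. Their summed level was 313 to 538 FPKM in the pools without Sin3A dsRNA and 270 to 385 FPKM in those with it. Of these 6, 4 fell, 1 rose and 1 did not pass the threshold. Pxn, which encodes peroxidasin, fell by 1.25 ± 0.10 on the log2 scale (adjusted p = 0.000224), crq, which encodes the scavenger receptor croquemort, rose by 0.28 (adjusted p = 0.00229), and eater had a value of -0.18 (adjusted p = 0.084). Neuron markers summed to 3.28 to 3.73 FPKM in the pools without the dsRNA and to 4.91 to 5.10 in those with it, and germline markers to 35.3 to 39.2 and 27.2 to 31.9 FPKM. Muscle markers summed to 1.72 to 2.88 FPKM in the pools without the dsRNA and to 2.21 to 2.88 in those with it, and gut markers stayed below 0.5 FPKM in all 8. Only elav among the neuron markers (mean 4.19 FPKM) and aub among the germline markers (mean 32.0 FPKM) reached a mean of 1 FPKM. Among the muscle markers only Mlc2 did (mean 1.55 FPKM). The neuron and germline sums thus rest mainly on 1 gene each. The part of these shifts in the levels of the 87 loci was not tested, and in bulk RNA fewer cells of a type and less RNA per cell cannot be told apart.

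The 87 loci together summed to 1360 to 1437 FPKM in the pools without Sin3A dsRNA and to 2602 to 2865 FPKM in those with it. Among all CG-numbered loci above the mean level, 2.61% met the ratio of 1.4, and among all 7748 loci 1.7% did. Most of the 87 lay close to the limit: 37 had a ratio under 1.5, another 18 a ratio from 1.5 to 1.6, and 5 a ratio of at least 2. The difference between the 2 sets of pools chose these loci, so it is given here as a description, with no test. All 87 passed the filter on the mean level and had an OK status in all 7 tables. Their mean level ran from 1.16 to 135.9 FPKM with a median of 16.4, against a median of 21.2 for CG-numbered loci as a whole, and 53 of them lay between 10 and 50 FPKM.

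**Figure D1:**
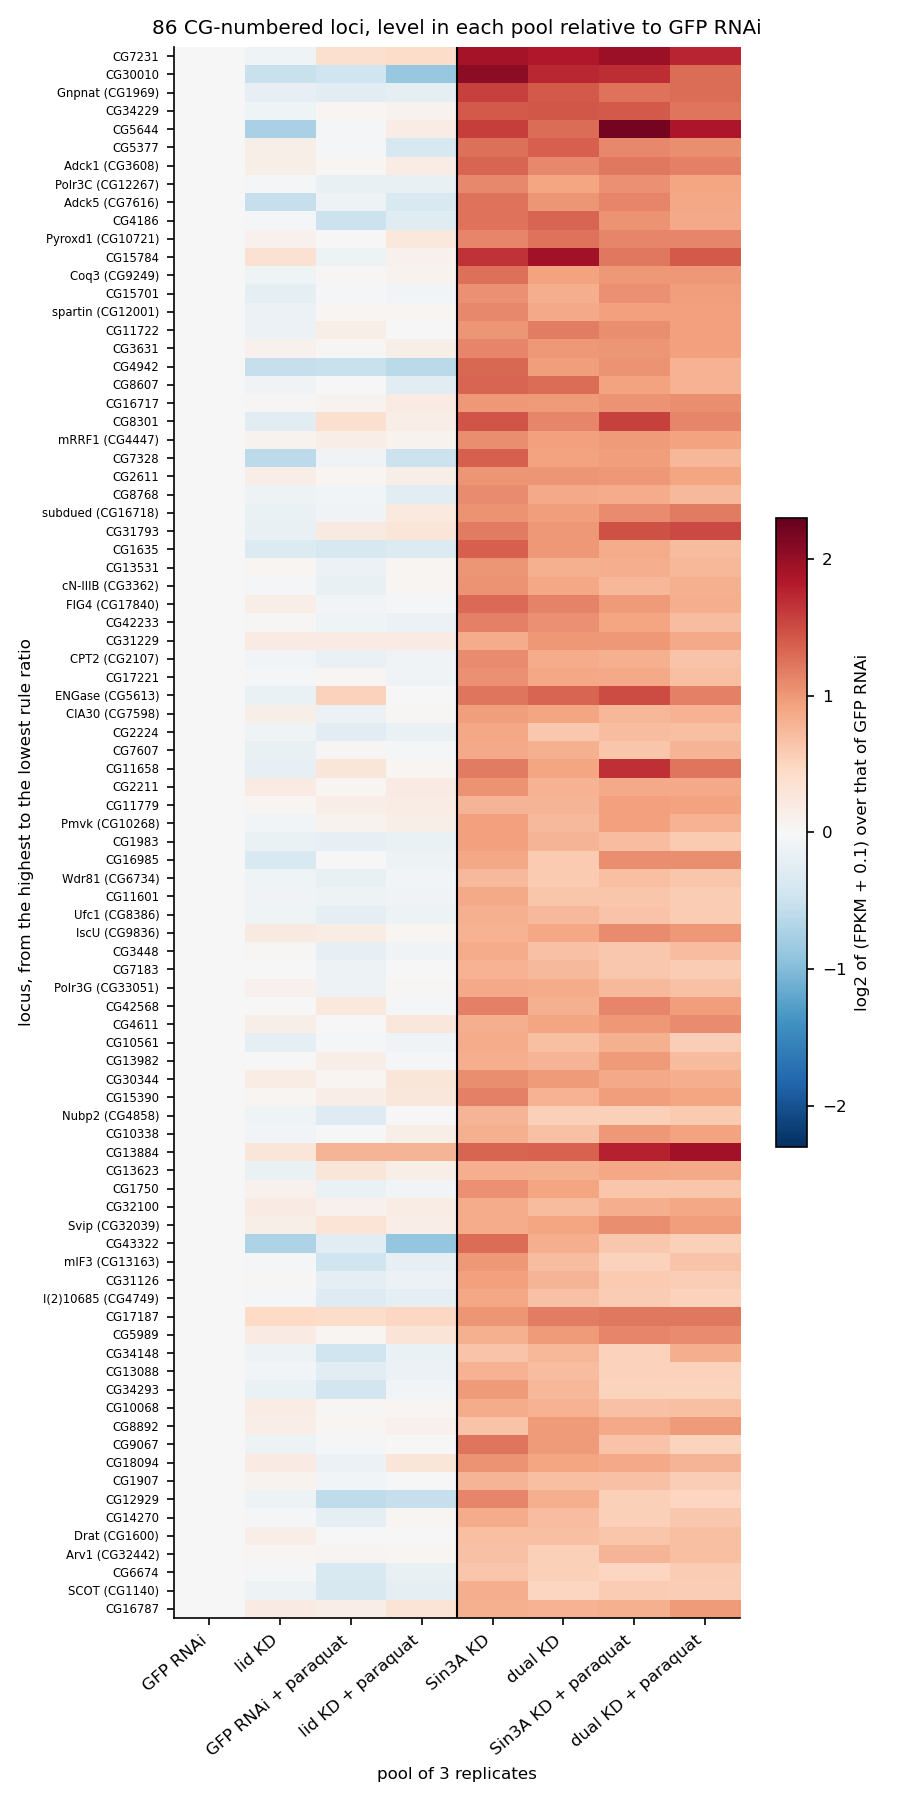
Level of 86 of the 87 loci in the 8 pools, as the log2 ratio of FPKM + 0.1 to that of GFP RNAi, with loci ordered by ratio from top to bottom and 1 value per pool. All 4 pools to the right of the line carried Sin3A dsRNA and are above the control for every locus, which is what the choice of loci fixes; the 4 pools to the left differ far less.

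The locus with the largest ratio was CG7231, with a recorded span of chr2L:7891310-7986785 in the dm3 genome and a ratio of 2.52. It stood at 4.38 FPKM in GFP RNAi, 4.09 in lid KD, 5.70 in GFP RNAi with paraquat and 5.89 in lid KD with paraquat, and at 16.8, 16.0, 17.4 and 15.0 FPKM in Sin3A KD, dual KD and the same pair with paraquat. Its 4 high values thus lay within a narrow band, while the paraquat pools were the higher ones among the low values. The locus overlaps 1 other locus in the tables. Since the library kit is not stated to keep strand, reads of overlapping genes cannot be told apart. This limit holds for 49 of the 87, also where no overlap is named below. Positions and overlaps given here are those of the recorded spans. For 2665 of 7128 CG-numbered loci compared, the span equalled the length of the gene of that name in a later annotation. A span need not therefore be the extent of the gene itself.

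CG30010 (chr2R:5738208-5762577) had the largest fitted difference, 4.43-fold. Its values were 6.79, 4.75, 4.94 and 3.69 FPKM in GFP RNAi, lid KD and the same pair with paraquat, and 28.7, 22.7, 22.1 and 16.6 FPKM in Sin3A KD, dual KD and that pair with paraquat. Within each set of 4 pools both lid dsRNA and paraquat went with a lower value, so that the lowest of the 8 was lid KD with paraquat. This locus overlaps 3 other loci.

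Gnpnat (CG1969, chr3R:25563997-25567674) encodes glucosamine-phosphate N-acetyltransferase, an enzyme of the hexosamine pathway that makes the sugar donor for chitin and for protein glycosylation. It stood at 11.5, 10.1, 9.65 and 9.84 FPKM without Sin3A dsRNA and at 34.6, 30.9, 27.5 and 28.2 FPKM with it, in the same order of pools, a 2.92-fold fitted difference. Its upstream neighbour CIA30 (CG7598, chr3R:25562656-25563792), an assembly factor of respiratory complex I, lies 204 bp away on the same strand and is also among the 87. CIA30 stood at 19.3 to 23.3 FPKM without Sin3A dsRNA and at 36.0 to 41.6 FPKM with it. The only other pair within 5000 bp was Svip (CG32039) and mRRF1 (CG4447), with spans 2360 bp apart on chr3L. Svip is an inhibitor of protein extraction from the endoplasmic reticulum in mammals, and mRRF1 is the ribosome recycling factor of mitochondria.

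CG5644 was the least abundant of the 12 loci with the largest ratios in every pool. It stood at 0.858, 0.472, 0.841 and 0.972 FPKM without Sin3A dsRNA and at 2.79, 2.24, 4.29 and 3.36 FPKM with it. CG34229 stood at 14.8 to 16.7 FPKM and at 37.3 to 42.5 FPKM, CG5377 at 10.8 to 15.3 and 29.4 to 36.2, and CG4186 at 4.18 to 5.91 and 10.9 to 15.1. No role is given here for these 4 loci.

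Adck1 (CG3608) and Adck5 (CG7616), both of the atypical aarF kinase family that also holds the coenzyme Q regulator Coq8, were each among the 12 largest ratios. Adck1 stood at 11.2 to 12.5 FPKM without Sin3A dsRNA and at 24.0 to 28.5 FPKM with it, a 2.17-fold fitted difference. Adck5 stood at 2.59 to 3.80 FPKM and at 7.17 to 9.19 FPKM, a 2.50-fold difference, with lid KD the lowest of the 8 pools. Coq3 (CG9249), a methyltransferase of coenzyme Q synthesis, came next in ratio at 1.80, with 11.6 to 13.1 and 23.7 to 29.8 FPKM.

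Polr3C (CG12267), a subunit of RNA polymerase III, which transcribes tRNA and 5S rRNA genes, stood at 10.3, 9.99, 9.11 and 9.07 FPKM without Sin3A dsRNA and at 22.1, 19.3, 21.5 and 19.2 FPKM with it. Polr3G (CG33051), a subunit that pairs with Polr3C in the polymerase, stood at 16.9 to 19.7 and 29.5 to 33.9 FPKM. Pyroxd1 (CG10721), a flavin-dependent oxidoreductase, stood at 10.2 to 12.1 and 22.2 to 24.5 FPKM.

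CG15784 on the X chromosome (chrX:5324713-5326494) was the most abundant of the 87. It stood at 66.9, 85.4, 61.6 and 71.5 FPKM in GFP RNAi, lid KD and that pair with paraquat, and at 212, 257, 155 and 178 FPKM in Sin3A KD, dual KD and that pair with paraquat. In all 4 pairs the pool with lid dsRNA was the higher one, and in all 4 the pool with paraquat was the lower one. The other abundant loci were IscU (CG9836), the scaffold on which iron-sulfur clusters are built in mitochondria, with 70.3 to 80.8 and 122 to 149 FPKM, and subdued (CG16718), a membrane channel of the TMEM16 family, with 44.8 to 58.5 and 97.3 to 114 FPKM. Drat (CG1600), an alcohol dehydrogenase-like protein, stood at 50.9 to 57.2 and 80.5 to 83.4 FPKM, and CG16985 at 31.8 to 40.5 and 61.3 to 84.7 FPKM.

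**Figure D2:**
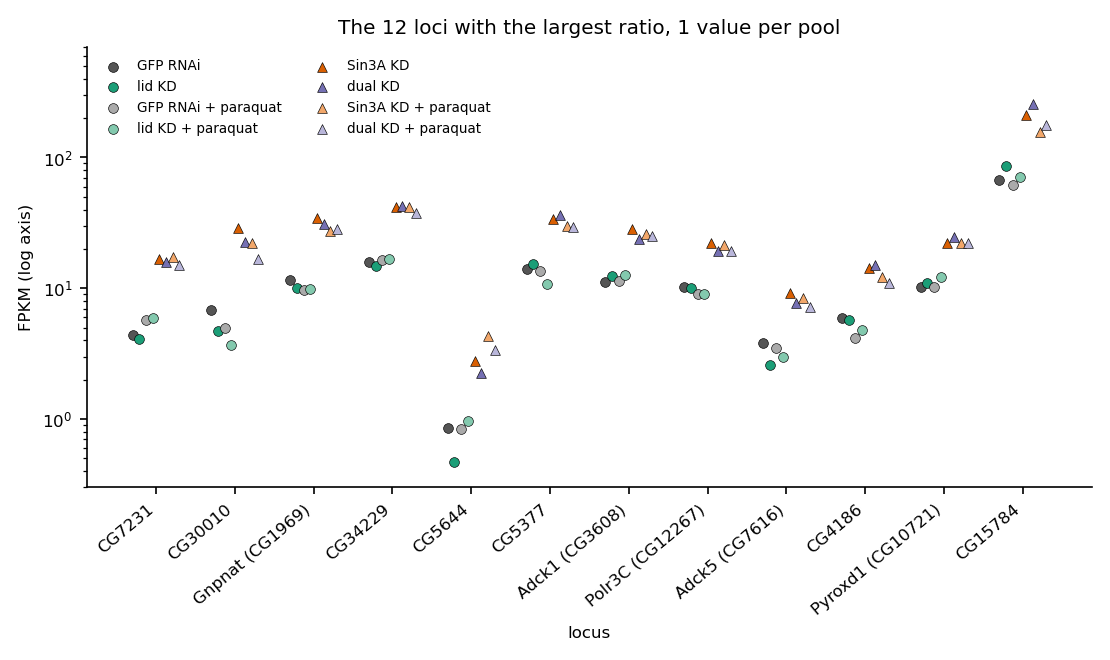
FPKM on a log axis of the 12 loci with the largest ratio, with circles for the 4 pools without Sin3A dsRNA and triangles for the 4 with it, 1 value per pool of 3 replicates. The triangles lie above the circles for each locus, from CG5644 below 5 FPKM to CG15784, which reached 257 FPKM in dual KD.

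At the other end, SCOT (CG1140), which activates ketone bodies for use in mitochondria, had a ratio of 1.404, CG16787 one of 1.402 and CG6674 one of 1.407. Just outside stood CG11309 at 1.399, CG42813 at 1.398 and Idh3b (CG6439), a subunit of the isocitrate dehydrogenase of the citric acid cycle, at 1.397. Idh3b had 64.0 to 66.9 FPKM without Sin3A dsRNA and 93.5 to 97.3 FPKM with it, so a locus just outside the limit had the same non-overlapping pattern as one just inside. CG3476, which the study tested by other means, had 24.5 to 33.7 and 39.5 to 53.2 FPKM and a ratio of 1.17, which placed it outside. It was still higher with Sin3A dsRNA, by a fitted 0.76 ± 0.08 (SE) on the log2 scale (limma adjusted p = 0.000486). The study describes this gene as repressed by SIN3.

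Roles that are known well enough to state were given to 28 of the 87 after their values were seen. The largest group, 12 loci, acts in mitochondria, and the fitted differences in it ran from 1.599-fold to 2.50-fold with a median of 1.85-fold. Roles were not given to the other CG-numbered loci, so no background share can stand beside this count. Whether mitochondrial roles are more common among the 87 was not tested. CPT2 (CG2107), which completes the import of long fatty acids into mitochondria, stood at 26.3 to 29.4 FPKM without Sin3A dsRNA and at 46.2 to 62.3 FPKM with it. CG11779, the fly counterpart of the import motor component Tim44, stood at 29.2 to 33.0 and 50.0 to 56.0 FPKM, and CG1907, a mitochondrial carrier, at 33.6 to 37.0 and 52.2 to 60.2 FPKM. mIF3 (CG13163), a mitochondrial translation initiation factor, stood at 7.36 to 10.2 and 14.8 to 20.3 FPKM, and mRRF1 at 4.22 to 4.74 and 8.11 to 8.92 FPKM.

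A second group of 5 loci acts on membranes and endosomes, with fitted differences of 1.56-fold to 2.10-fold. FIG4 (CG17840), a phosphoinositide phosphatase, stood at 7.50 to 8.63 FPKM without Sin3A dsRNA and at 14.0 to 19.3 FPKM with it. Spartin (CG12001), a protein of endosomes and lipid droplets, stood at 10.8 to 12.3 and 21.9 to 25.7 FPKM. Wdr81 (CG6734), which acts in endosome maturation in mammals, stood at 9.17 to 10.3 and 15.7 to 17.4 FPKM, and Arv1 (CG32442), a protein of sterol homeostasis known from yeast, at 7.54 to 7.87 and 11.1 to 13.1 FPKM.

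The remaining roles were spread over small groups. Nubp2 (CG4858), a scaffold of cytosolic iron-sulfur assembly, stood at 30.2 to 37.3 FPKM without Sin3A dsRNA and at 54.7 to 64.2 FPKM with it. Pmvk (CG10268), the phosphomevalonate kinase of isoprenoid synthesis, stood at 10.1 to 11.7 and 17.8 to 20.6 FPKM. Ufc1 (CG8386), which conjugates the ubiquitin-like modifier UFM1 to proteins, stood at 29.4 to 34.6 and 52.1 to 61.0 FPKM, and ENGase (CG5613), which cuts glycans off proteins, at 3.07 to 4.97 and 7.73 to 9.83 FPKM. The Ufc1 locus overlaps 3 others and the ENGase locus 1.

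The difference is given next within each of the 4 pairs of pools that differ only in Sin3A dsRNA. The median of the 87 loci was 2.02-fold between Sin3A KD and GFP RNAi, 1.83-fold between dual KD and lid KD, 1.91-fold between the first pair with paraquat and 1.75-fold between the second pair with paraquat. All 87 passed 1.4-fold in each of these pairs by the choice of loci, where 10.3%, 9.94%, 11.3% and 8.58% of all loci did, and nothing is read from that count or from how alike the pairs are. Sin3A KD held the highest of the 8 values for 54 of the loci and dual KD with paraquat the lowest of the 4 high values for 39. The highest of the 4 low values was most often GFP RNAi, for 30 loci, and next lid KD with paraquat, for 26.

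**Figure D3:**
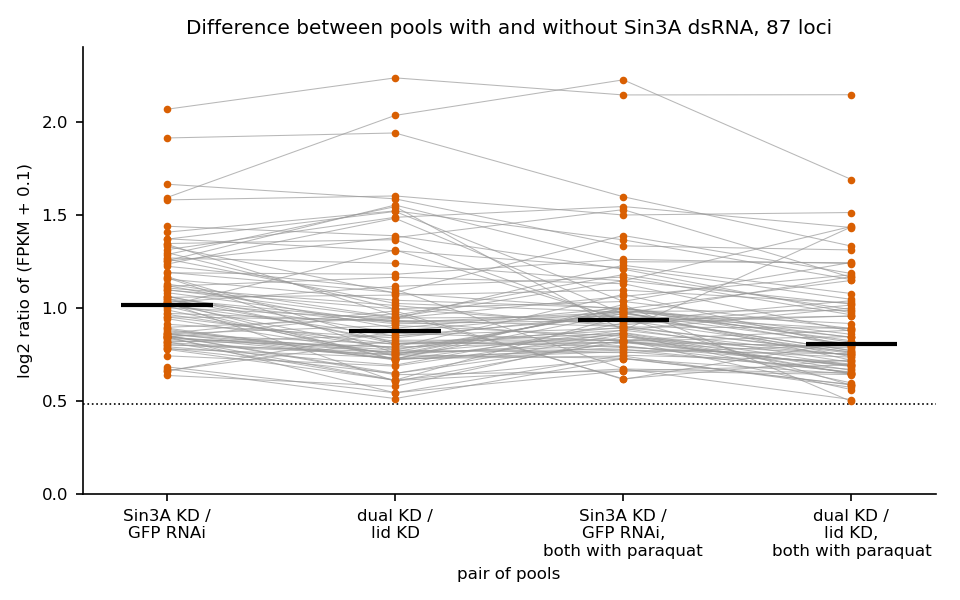
Log2 ratio of FPKM + 0.1 within the 4 pairs of pools that differ only in Sin3A dsRNA, with 1 line per locus, a bar at the median of the 87 and a dotted line at 1.4-fold. Every point lies above the dotted line by the choice of loci, and the medians run from 1.75-fold to 2.02-fold.

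Whether the difference depended on lid dsRNA or on paraquat was asked of the interaction terms of a fit to log2(FPKM + 0.1) over all 7748 loci with limma. The choice of loci bounds these terms, which are formed from the same pools. The Sin3A and lid interaction, which is the log2 difference in dual KD relative to lid KD minus that in Sin3A KD relative to GFP RNAi, had a median of -0.12 over the 87 loci and of -0.02 over all loci. It was below 0 for 71 of the 87 and for 4281 of the 7748. No locus among the 87 passed an adjusted p of 0.05, where 0.0387% of all loci did. An unadjusted p below 0.05 was found for 3 of the 87 (3.45%) and for 4.01% of all loci, so their share is near that of all loci. Those 3 were Adck1 at -0.28, CG30344 at -0.26 and CG18094 at -0.41 on the log2 scale. In the 60 CG-numbered loci that meet the mirror rule, lower with Sin3A dsRNA, the median was 0.27 and the term was above 0 for 53. None of the 60 was called, and 17 of them (28.3%) had an unadjusted p below 0.05. Both sets were chosen by the pair differences from which this term is formed, so nothing is read from its sign.

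The Sin3A and paraquat interaction had a median of -0.07 over the 87 loci against -0.01 over all loci. No locus among the 87 was called, where 0.0129% of all loci were. An unadjusted p below 0.05 was found for 7 of the 87 (8.05%) and for 3.91% of all loci. This term too is formed from the pair differences that chose the loci, so nothing is read from that share or from its sign. The largest of these terms was that of CG9067, at -0.57 (adjusted p = 0.997). CG9067 stood at 15.2, 14.0, 14.9 and 15.2 FPKM without Sin3A dsRNA, at 35.7 and 30.2 FPKM in Sin3A KD and dual KD, and at 23.9 and 21.6 FPKM in that pair with paraquat. The 2 sets of pools did not overlap, and the step with Sin3A dsRNA was smaller in the paraquat pools. With 1 pooled value per group these fits have 2 residual degrees of freedom and an error that is the departure from additivity, not the spread of replicates. The fits of the Sin3A, lid and paraquat effects, with 4 residual degrees of freedom, have an error of the same kind. All standard errors and p-values given here carry this limit.

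The effect of lid dsRNA over the 4 pairs of pools that differ only in it was small for most of the 87. The choice of loci works against a wide spread within each set of 4 pools, and lid dsRNA and paraquat both divide each set. Nothing is therefore read from how small these effects were or from how few were called. Its fitted log2 size had a median of 0.07, against 0.09 over all loci, and its sign was below 0 for 53 of the 87 and for 3703 of the 7748. A single locus passed the threshold, where 4.54% of all loci did: CG30010 fell by 0.42 ± 0.04 (SE) on the log2 scale (limma adjusted p = 0.0153), lower with lid dsRNA in 4 of 4 pairs. That call was lost in 7 of 8 fits that each left out 1 pool and kept in the fit without Sin3A KD, with adjusted p from 0.0426 to 0.0972 and a log2 value from -0.44 to -0.39. An unadjusted p below 0.05 was found for 14 of the 87 (16.1%) and for 23.7% of all loci. The most negative value was that of CG43322, -0.46 ± 0.20 (adjusted p = 0.219), and the most positive that of CG15784, 0.26 ± 0.07 (adjusted p = 0.0917).

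Of the 87, 6 (CG30010, CG5644, Adck5, CG4942, CG7328 and CG43322, named here after their values were seen) were at least 1.4-fold lower in lid KD than in GFP RNAi, where 4.79% of all loci were. With paraquat 2 of the 87 were, against 4.22% of all loci. Between dual KD and Sin3A KD none of the 87 was past 1.4-fold in either direction, without or with paraquat, where 5.83% of all loci were higher and 2.99% lower without it, and 2.54% higher and 1.78% lower with it. Both pools of each of these pairs lie on the same side of the rule, which works against a wide gap between them. Nothing is therefore read from these counts. CG7328 stood at 2.70 FPKM in GFP RNAi and 1.75 in lid KD, and at 7.13 FPKM in Sin3A KD and 5.19 in dual KD. CG4942 stood at 3.87 and 2.66 FPKM in the first pair and at 9.77 and 7.63 FPKM in the second.

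Paraquat was past the threshold for 21 of the 87 loci, 5 higher and 16 lower, where 36.8% of all loci were called, 15.2% higher and 21.6% lower. The choice of loci works against a large paraquat effect too, so nothing is read from that share or from the median size. Relative to each pool's median the split turned to 15 higher and 8 lower among the 87, and over all loci from 1176 higher and 1675 lower to 1584 higher and 1322 lower, so the balance of directions rests on the scaling. None of the called loci changed its own direction in any setting run. The median size of the paraquat effect was 0.13 on the log2 scale over the 87 and 0.16 over all loci. Of the 21 calls, 6 held in all 8 fits that each left out 1 pool, among them CG12929, CG13884, CG30010, CG31793 and CG4186. Without the pool of Sin3A KD with paraquat 6 of the 87 were called, the fewest.

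The largest paraquat effect among the 87 was that of CG13884, which rose by 0.58 ± 0.10 on the log2 scale (adjusted p = 0.00679) and was higher with paraquat in 4 of 4 pairs. It stood at 1.16 and 1.42 FPKM in GFP RNAi and lid KD and at 2.06 and 2.07 FPKM in that pair with paraquat, and at 3.07, 3.12, 4.20 and 4.71 FPKM in Sin3A KD, dual KD and that pair with paraquat. CG31793 rose by 0.36 ± 0.06 (adjusted p = 0.00687), from 6.70 to 7.73 FPKM in GFP RNAi and from 15.4 to 18.7 FPKM in Sin3A KD. CG11658 rose by 0.33 ± 0.07 (adjusted p = 0.0145) and CG11779 by 0.15 ± 0.03 (adjusted p = 0.0117).

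The largest fall with paraquat was that of CG12929, by 0.48 ± 0.06 on the log2 scale (limma adjusted p = 0.00285). It stood at 36.0 and 33.2 FPKM in GFP RNAi and lid KD, at 23.9 and 25.0 FPKM in that pair with paraquat, at 78.8 and 64.1 FPKM in Sin3A KD and dual KD, and at 52.9 and 50.9 FPKM in that pair with paraquat. CG12929 was thus higher with Sin3A dsRNA and lower with paraquat in every pair. CG30010 fell by 0.41 ± 0.04 (adjusted p = 0.00187), CG4186 by 0.35 ± 0.07 (adjusted p = 0.0106) and CG15784 by 0.34 ± 0.07 (adjusted p = 0.013). Gnpnat fell by 0.19 ± 0.06 (adjusted p = 0.0385) and mIF3 by 0.28 ± 0.09 (adjusted p = 0.0457). Both of these calls held in only 2 of the 8 fits that left out a pool, with adjusted p up to 0.139 for Gnpnat and 0.149 for mIF3.

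**Figure D4:**
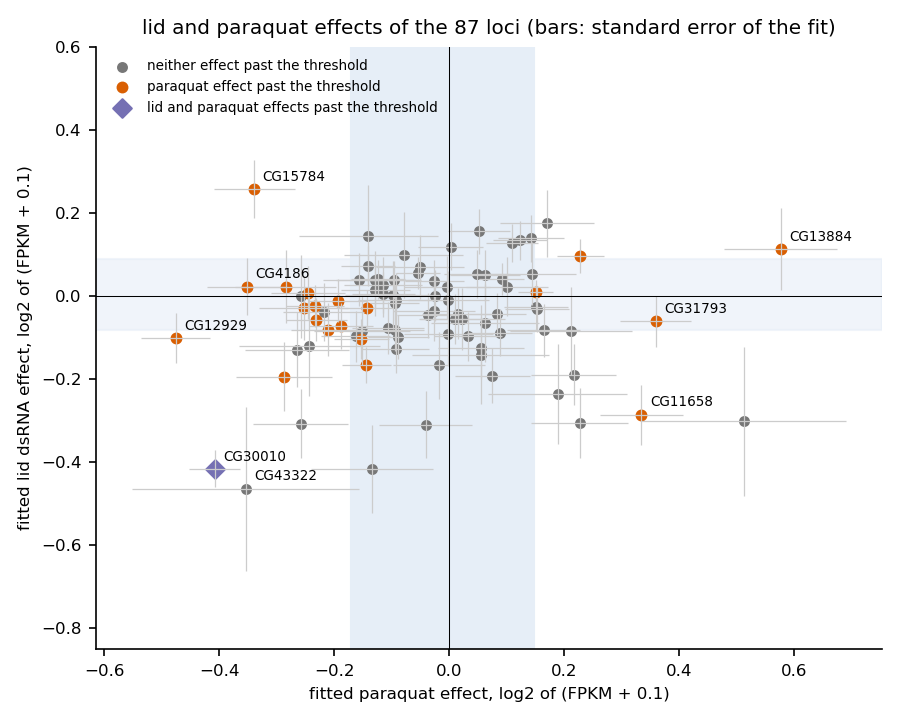
Fitted lid dsRNA effect against fitted paraquat effect of the 87 loci on the log2 scale of FPKM + 0.1, with bars for the standard error of the fit and shaded bands from the lower to the upper quartile of all 7748 loci. CG30010 is the single locus past the threshold for both, and CG12929 and CG13884 mark the lowest and highest paraquat effects.

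Other genes of the same pathways give the setting of these loci. In a list of 9 genes of iron-sulfur assembly, IscU and Nubp2 are among the 87. Of the other 7, 3 were higher and 1 was lower with Sin3A dsRNA at an adjusted p below 0.05, where 26.1% of all loci were higher and 26.4% lower. Ciao1, a cytosolic assembly factor outside the CG-numbered set, stood at 36.5 to 41.5 FPKM without the dsRNA and at 63.1 to 67.2 FPKM with it and also met the ratio of 1.4. CG17683 was the gene that fell, from 28.0 to 35.4 FPKM down to 20.7 to 30.9 FPKM, with overlapping ranges.

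In the list of mitochondrial carriers, 6 of 12 tested genes beside CG1907 were higher and none was lower, and in fatty acid oxidation 6 of 13 beside CPT2 were higher and 2 lower. yip2, a thiolase, stood at 85.3 to 96.8 FPKM without Sin3A dsRNA and at 139 to 154 FPKM with it. Of mitochondrial import genes beside CG11779, 3 of 10 were higher and 2 lower, with a median log2 effect of -0.05. Of the RNA polymerase III subunits other than Polr3C and Polr3G, 3 of 8 were higher and 2 lower, with a median of 0.07. Of the 5 coenzyme Q genes other than Coq3, Coq8 was higher and Coq6 lower. The last pair of lists was collected by gene symbol after the members were known. Each pathway thus held genes in both directions or near 0 beside the ones described here.

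**Figure D5:**
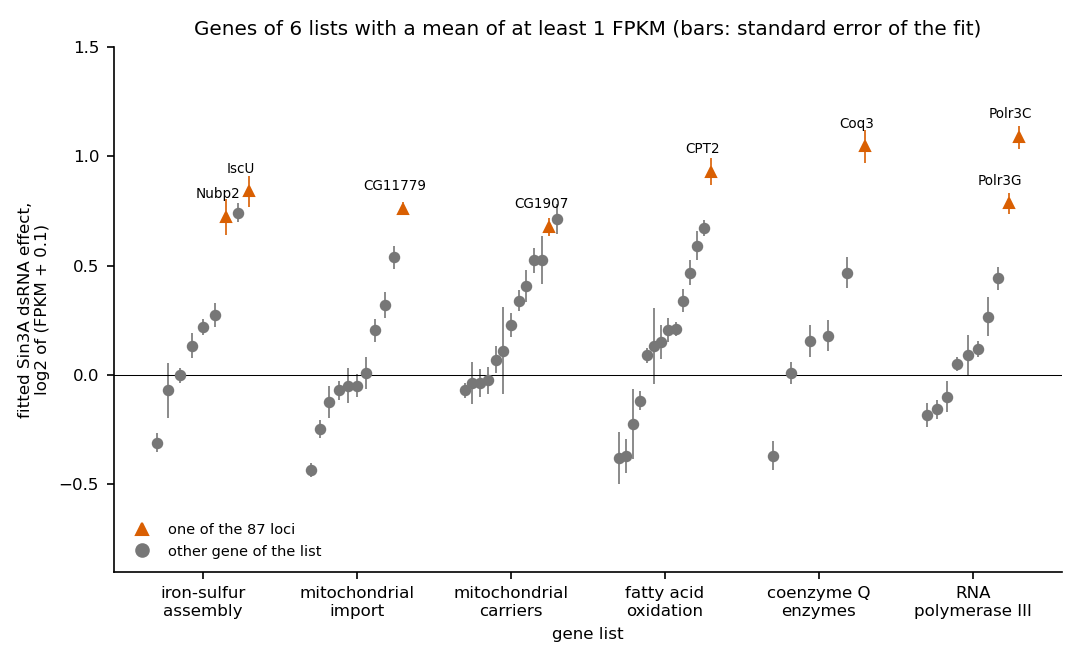
Fitted Sin3A dsRNA effect, on the log2 scale of FPKM + 0.1, of the genes of 6 lists with a mean of at least 1 FPKM, with triangles for the loci among the 87, circles for other genes and bars for the standard error of the fit. Polr3C and Polr3G lie above the other 8 subunits, and Coq3 above the other 5 coenzyme Q genes. The triangles were chosen by this same difference, so nothing is read from their place above other genes. Among the circles, Ciao1 (0.74) lies above Nubp2 (0.72), and CG4743 (0.71) above CG1907 (0.68).

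The 87 loci were spread over the autosomal arms, with 20 on 2L, 15 on 2R, 24 on 3L and 25 on 3R, and 3 lay on the X chromosome. The X held 17.6% of all CG-numbered loci above the mean level and 3.45% of the 87. Among the 60 loci of the mirror rule 14, or 23.3%, lay on the X, and of the 45 loci with other names that met the ratio of 1.4, 1 did. Over all 1297 loci on the X with a mean of at least 1 FPKM the median log2 difference with Sin3A dsRNA was -0.14, over the 75 on chromosome 4 it was -0.29, and on the arms of chromosomes 2 and 3 it lay between 0.02 and 0.04. The 3 X-linked loci were CG15784, ENGase and CG14270, and CG14270 stood at 26.5 to 31.4 FPKM without Sin3A dsRNA and at 44.4 to 54.8 FPKM with it. The 23 CG-numbered loci on chromosome 4 gave none of the 87 and 3 of the 60.

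At the median, the coding length of these genes was shorter than that of CG-numbered loci as a whole, a difference that was not tested. In gene models matched by name, the median coding length of the 87 was 987 bases with a median of 3 exons, against 1203 bases and 3 exons for all CG-numbered loci above the mean level. Of the 87, 49 overlapped another locus of the tables (56.3%, against 44.5% of CG-numbered loci). A neighbour in head-to-head orientation within 1000 bp, measured between spans, was found for 36 of them, or 41.4%, against 40.7%. A span can be wider than its gene, so this gap need not be the gap between gene starts. The 36 are therefore not established as head-to-head gene pairs. None of these 36 neighbours was itself among the 87, and 8 had a mean below 1 FPKM. The other 28 had a median log2 difference of 0.24 with Sin3A dsRNA, and 15 of them were higher and 3 lower at an adjusted p below 0.05, where 26.1% and 26.4% of all loci were.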

How the data were processed

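RNA of 24 S2 cell samples, in 8 groups of 3 replicates taken from the sample labels, was sequenced by the authors with paired reads after TruSeq preparation. The authors aligned reads to dm3 with Bowtie and TopHat and quantified them with Cufflinks and Cuffdiff (no version is given in the sources used here). The deposited FPKM values are 1 per group and locus, with replicates combined by Cuffdiff; the methods give only an approximate sequencing depth, and the read counts behind each value were not used here. The 7 deposited tables also hold the authors' fold changes, test statistics, p-values and q-values for each group against GFP RNAi, which were not used.

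Values were read as log2(FPKM + 0.1). The 8 pools were fitted with limma 3.58.1 in R 4.3.3 (trend) by the presence of lid dsRNA, of paraquat and of Sin3A dsRNA (4 residual degrees of freedom), and by these with the Sin3A interactions. Tests were two-sided, with p-values adjusted by Benjamini-Hochberg over 7748 loci with a mean of at least 1 FPKM and called below 0.05. The fit was tested on simulated data with 2-fold effects. It recovered 92.5% of the lid effects and 46% of the Sin3A and paraquat interactions. The lack of a called interaction is therefore not read as its absence. The fitted lid effects of the 87 had a size of at most 0.46 on the log2 scale. Recovery of effects that small was not tested. Members and lists were chosen with earlier results of these data known. Named are the targets, the 12 largest ratios, the 5 highest levels, the 3 loci on each side of the limit, called loci, extremes, list members, neighbours within 5000 bp and CG3476, with further loci picked after their values were seen. Symbols were taken from RefSeq and gene models from Ensembl by name, both of a later build whose coordinates are not given. Promoter and protein sequences were not analysed here, and the values of 1 locus are not reported here. Alternatives changed the pseudocount to 1, the filter, the scaling, the variance trend, the ratio and the pools included. Python 3.11.15 was used.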

Additional observations from a re-analysis of the deposited data

How the results depend on the processing

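No paired analysis was possible because the deposited values combine the replicates of each group and carry no replicate numbers. For the same reason no replicate could be left out, and each of the 8 pools was left out in its place. With a ratio of at least 1.3 the rule gave 144 loci and with 1.6 it gave 32; the other settings of the rule moved the count of 87 by less than 1.5 times. The lid call was lost with a demand of 1.4-fold (0 of the 87), and 0 to 1 were called when a pool was left out; over all loci 352 calls became 152 with no filter on level, 72 with 1.4-fold and 3 to 72 without a pool. The 21 paraquat calls became 12 with no filter, 1 with 1.4-fold and 6 to 24 without a pool; over all loci 2851 became 563 with 1.4-fold and 1413 to 2653 without a pool. No interaction was called among the 87 in any setting. Over all loci the 3 calls for Sin3A and lid became 1 with a pseudocount of 1 FPKM, 6 with no filter, 5 without the trend and 0 to 25 without a pool, and the 1 call for Sin3A and paraquat became 0 with that pseudocount, 0 without the trend and 0 to 20 without a pool, in fits with a single residual degree of freedom. Of the 22 called effects of the 87 loci, 13 stayed past the threshold with another pseudocount, filter, scaling or trend, and 0 changed direction. Causes were not tested.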

Other observations

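Of the 4415 loci with other names and a mean of at least 1 FPKM, 45 met the same ratio of 1.4 and 58 the mirror ratio, while among the 3333 CG-numbered loci 87 and 60 did. The 60 CG-numbered loci lower with Sin3A dsRNA had a median level of 5.97 FPKM, against 16.4 FPKM for the 87 higher ones, and a median log2 difference of -1.11, against 0.88. At least 1.4-fold lower in lid KD than in GFP RNAi were 14 of the 60 and 6 of the 87, where 4.79% of all loci were. Between dual KD and Sin3A KD, 7 of the 60 and 0 of the 87 were at least 1.4-fold higher, where 5.83% of all loci were. Paraquat was past the threshold for 10 of the 60, 1 higher and 9 lower, and for 21 of the 87, 5 higher and 16 lower, where 36.8% of all loci were called, 15.2% higher and 21.6% lower. These pairs of counts were not tested against each other, and each set was chosen by its own Sin3A values. That choice works against wide lid and paraquat differences in both sets, so nothing is read from those counts.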
